A study of Homo sapiens with 18 samples.

Results

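The genes examined here encode the proteins of the cytosolic ribosome, the particle that translates messenger RNA in the cytoplasm. They were taken as the genes whose single symbol in the platform's gene table is RPL or RPS followed by a number (with A or X where the name has it), or RPLP0, RPLP1, RPLP2 or RPSA, and the brightest probe set of a gene, by its mean over all arrays, stands for it. The rule found 52 of 19775 genes with a single symbol, 32 of the large subunit (RPLP1 and RPLP2 among them) and 20 of the small subunit. A further 15 ribosomal protein genes were only on probe sets that carry several symbols, and 10 were not listed, so they have no value here. RPL13A, RPL5 and RPL23 belong to the first group, and RPLP0 and RPSA to the second. The study scaled its qRT-PCR measurements to RPL13A in MDA-MB-231 cells, and to RPLP0 with TBP in keratinocytes.

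MDA-MB-231 cells, an established line of mesenchymal triple-negative breast cancer cells, were incubated for 16 hours in serum-free medium. They received 10 µM epirubicin in hypoxia (H epi) or in normoxia (N epi), 50 µM paclitaxel in hypoxia (H tax) or in normoxia (N tax), or no drug in hypoxia (H) or in normoxia (N), hypoxia being 1% oxygen. Epirubicin is an anthracycline that intercalates in DNA and poisons topoisomerase II, and paclitaxel stabilizes microtubules. The RNA was measured on arrays of the Affymetrix type HG-U133 Plus 2.0, and the values are GC-RMA signals on the log2 scale, so that 1 log2 unit is a doubling of signal. The methods name redefined probe sets while the table carries the standard Affymetrix names, so which probes a row sums is not settled, and symbols follow the standard names. Each condition has 2 arrays here. The study speaks of independent experiments, but the labels do not say which arrays came from separate cultures, so the p-values measure the spread between these arrays. A further 6 arrays were assigned to no condition, because title and source name gave different drugs, and they enter only as alternatives.

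Each subunit of the ribosome is an RNA core with many small and mostly basic proteins, most of which are needed in equal numbers. In growing cells their messenger RNAs are among the most abundant and most stable. The large subunit forms the peptide bond and carries the stalk of P proteins that recruits elongation factors, and the small subunit decodes the message. In mammals these messenger RNAs start with a cytidine followed by a run of pyrimidines, the 5′ terminal oligopyrimidine (TOP) motif, through which mTORC1 and LARP1 control their translation. Free RPL5, RPL11 and RPL23 bind MDM2 when ribosome assembly is disturbed, which stabilizes p53 in cells with the wild-type protein. None of this was measured here, and the arrays report messenger RNA signal only.

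Promoters from RefSeq (GRCh38.p14, 250 bases before to 50 after the annotated start) were available for 46 of the 52 genes, and they show a sequence feature that the members were not chosen for. The longest run of C and T that touched the 10 bases on either side of the start had a median length of 11 bases in the members and of 4 bases in 27305 genes, and it held 8 bases or more in 37 members (80.4%), against 15% of all genes. A C at the annotated start followed by 4 pyrimidines, a count chosen after the sequences had been seen, stood in 33 members (71.7%), against 4.04% of all genes. Of the 10 members called higher with epirubicin, 6 had such a C at the start. RPL6, RPL11 and RPL19 lacked it and RPL31 had it, and their sequences are not printed below. The 30 bases around the start (15 on either side, capitals marking the longest run of C and T) are given first for the other members called higher with epirubicin. Members with the narrowest range over the conditions follow.
RPL22: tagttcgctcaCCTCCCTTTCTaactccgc
RPL36: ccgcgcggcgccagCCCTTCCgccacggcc
RPL14: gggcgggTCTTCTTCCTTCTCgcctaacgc
RPL3: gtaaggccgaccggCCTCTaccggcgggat
RPS9: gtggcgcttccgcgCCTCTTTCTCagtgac
RPS6: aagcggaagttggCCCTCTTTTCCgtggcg
RPL41: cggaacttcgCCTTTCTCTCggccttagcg
RPS14: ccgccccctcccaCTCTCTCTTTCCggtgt
RPS21: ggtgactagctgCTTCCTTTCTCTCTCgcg
They lie at chr1:6199581-6199610 (minus strand) for RPL22, chr19:5690280-5690309 (plus strand) for RPL36, chr3:40457324-40457353 (plus strand) for RPL14, chr22:39319609-39319638 (minus strand) for RPL3, chr19:54200843-54200872 (plus strand) for RPS9, chr9:19380222-19380251 (minus strand) for RPS6, chr12:56116618-56116647 (plus strand) for RPL41, chr5:150449725-150449754 (minus strand) for RPS14 and chr20:62387088-62387117 (plus strand) for RPS21. The run was 5 bases long in RPL3 and 7 in RPL36, the shortest of these 9 genes, and 15 bases long in RPS21.

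Other short motifs were searched on both strands of the 300 bases. CCGGAAGT stood in 9 members (19.6%), against 4.44% of all genes, AAGATGGC in 4 (8.7%) against 3.03%, GGGCGG in 25 (54.3%) against 44.6%, and TATAAA in 3 (6.52%) against 12%. Where a gene had several listed promoters the first was taken, as in 6 members, the called RPL6, RPL11 and RPL19 among them. Among the 10 members with a promoter that were called higher with epirubicin, 6 had a pyrimidine run of 8 bases or more, and 31 of the other 36 members had one. The difference between these shares was not tested, and a match is a match of letters, not a site in use.

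Of the 52 members, 49 gave some of the strongest signals on the array. Their means over the 12 arrays lay between 13.83 (RPS9, a protein of the small subunit) and 16.04 (RPL23A, which lines the exit of the peptide tunnel), and all 49 were within the top 1% of probe sets on each of the 12 arrays. RPL41, the smallest ribosomal protein, followed with a mean of 16.00, and RPS4X, a small-subunit protein encoded on the X chromosome, with 15.98. Signals of different probe sets depend on their probes, so this order is one of signal and not of transcript number.

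The order of the 49 members hardly moved between conditions. The rank correlation of their levels was 0.966 to 0.995 between 2 conditions and 0.987 to 0.996 between the 2 arrays of 1 condition, across genes that share arrays. The condition means of a member spanned 0.17 log2 units in the median and 0.52 at most, within 2.21 log2 units between the highest and the lowest of the 49, and in 31 members they spanned less than 0.2. The probe sets of the 52 members took 6.3% to 6.75% of the summed linear signal of an array, with 6.53% ± 0.32 in H epi, 6.46% ± 0.08 in N epi, 6.50% ± 0.00 in H tax, 6.42% ± 0.12 in N tax, 6.37% ± 0.01 in H and 6.33% ± 0.04 in N (SD, n = 2 each). In bulk RNA, fewer cells and less RNA per cell cannot be told apart, and these shares say nothing of the amount per cell.

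**Figure D1:**
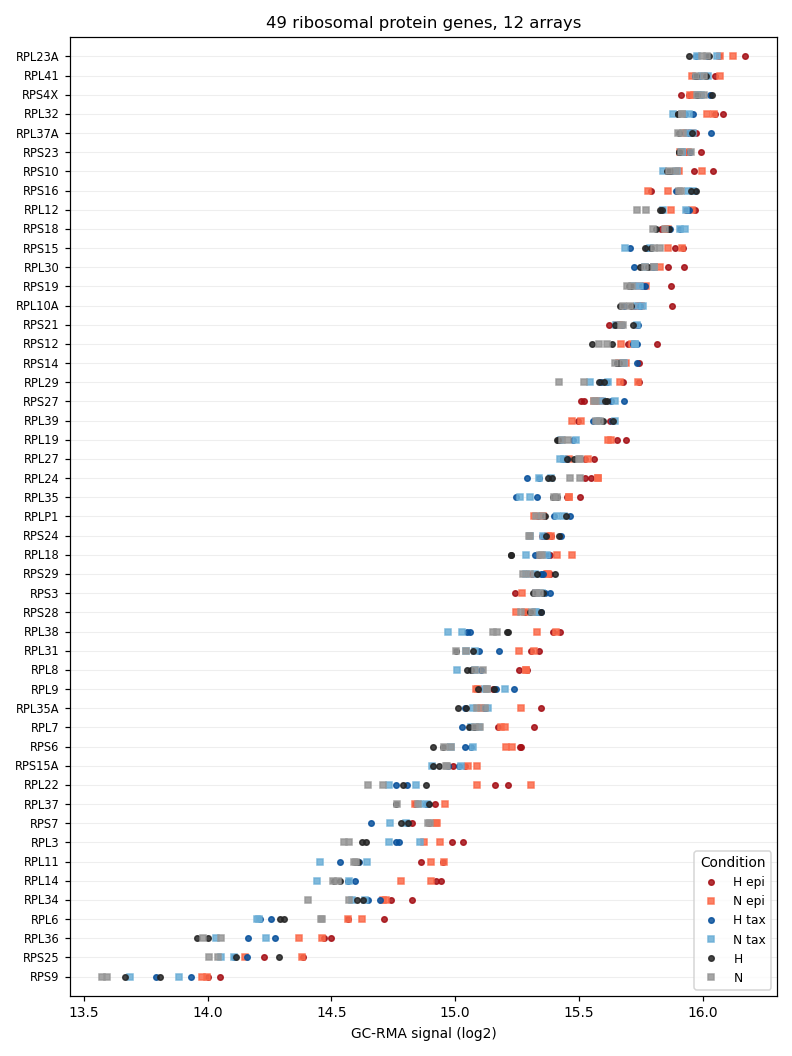
GC-RMA signal (log2, horizontal axis) of the 49 members with a mean above 13, 1 row a gene ordered by mean, with 1 point for each of 12 arrays, coloured by condition (circles for hypoxia, squares for normoxia). In RPL22, RPL14, RPL3, RPL36 and RPS9 the red epirubicin points stand to the right of the others, and in RPL41, RPS14 and RPS21 all conditions are mixed.

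Several properties of the arrays moved with epirubicin. The bacterial poly-A control transcripts, which are added to the RNA in fixed amounts, averaged 8.56 to 9.33 log2 units on the epirubicin arrays and 7.88 to 8.70 on the other 8, and in every condition replicate 1 exceeded replicate 2 by 0.37 to 0.67. The median of the tested probe sets was 6.73 to 7.17 on the epirubicin arrays and 7.36 to 7.46 on the others. The ACTB probe sets at the 3′ and the 5′ end differed by -0.31 to -0.21 log2 units on the epirubicin arrays, by -0.04 to -0.02 on the N arrays and by 0.07 to 0.32 on the H, H tax and N tax arrays. The part of these differences in the results was not tested beyond the scalings given with them. The 6 markers of MDA-MB-231 cells (VIM, CD44, AXL, MSN, CAV1, EGFR) were present on all 12 arrays. Of markers of other cells, ERBB2, EPCAM and GATA3 (luminal breast), APOA1 and TTR (hepatocyte), KRT10 (keratinocyte) and COL1A1 (fibroblast) were also present on all 12, ESR1 on 1 and AFP on 2, and PGR, CDH1, ALB, KRT1, KRT5, KRT14, PTPRC, CD3E, LYZ, DCN and LUM on none. APOA1 (3.34) and TTR (3.21 to 4.36) lay near the presence threshold of 3.14 log2 units. ERBB2, EPCAM, GATA3 and COL1A1 lay between 4.71 and 8.79, and KRT10 read 12.04 to 13.05. The N epi arrays differed more from each other than those of any other condition. Between them 10.2% of the genes tested differed by more than 1 log2 unit, against 4.71% in H epi and 0.277% to 0.884% in the other 4 conditions, and none of the 52 members did so in any condition.

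Measured by the brightest probe set of each gene, no ribosomal protein gene passed the test for hypoxia. Over all genes tested, 4.26% were called higher and 5.75% lower in H than in N (limma, adjusted p under 0.05 over 24151 probe sets), and none of the 52 members was called in either direction. At an unadjusted p under 0.05 the count was also 0. The members' changes had a median of 0.00 log2 units and ran from -0.16 to 0.19, against quartiles of -0.28 and 0.17 over all genes. With paclitaxel, H tax against N tax, 0.992% of genes were called higher and 0.259% lower, and with epirubicin, H epi against N epi, 0.214% higher and 1.48% lower. None of the members was called in either comparison, and none had an unadjusted p under 0.05. The median change was 0.02 in H tax against N tax and 0.04 in H epi against N epi.

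The difference between hypoxia effects was tested as well. Between the effect with paclitaxel and that in control cells, 0.0357% of genes were called higher and 0.0536% lower, and between the effect with epirubicin and that in control cells 1.56% were higher and 2.52% lower. No member passed either test, and none had an unadjusted p under 0.05. The members' values lay between -0.48 and 0.19 for paclitaxel and between -0.17 and 0.22 for epirubicin. The standard error of a member's change was 0.09 log2 units in the median for a comparison of 2 conditions and 0.13 for a difference of effects, which limits the size of a change that could be detected.

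**Figure D2:**
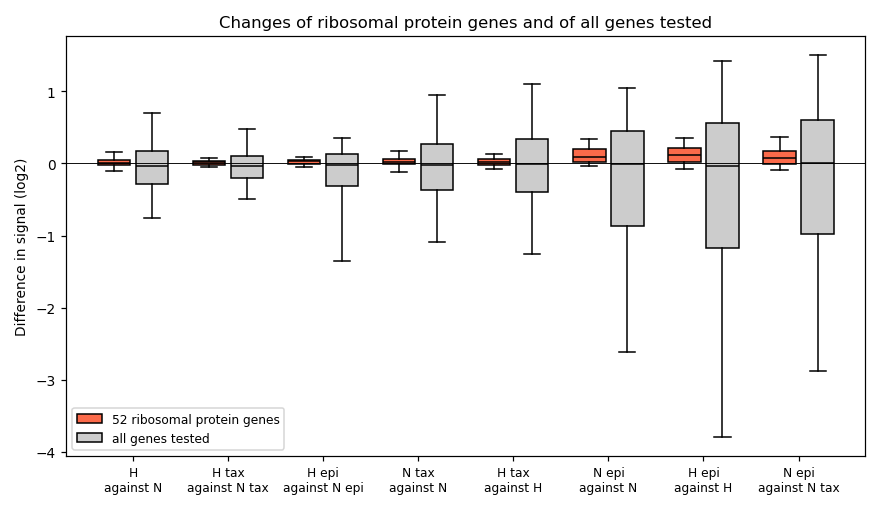
Difference in signal (log2, vertical axis) in 8 comparisons of 2 conditions, for the 52 ribosomal protein genes (red boxes) and for all 11193 genes tested (grey boxes). Boxes span the quartiles with the median as a line and whiskers leave out the outermost 5% of genes at either end. The red boxes are narrower than the grey ones in every comparison, and their medians stand highest in the last 3, at 0.09, 0.12 and 0.08.

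With paclitaxel, a single member passed the test. In N tax against N, 8.92% of all genes were called higher and 15% lower, and 1 of the 52 members was higher and 0 lower (2 and 1 at an unadjusted p under 0.05). In H tax against H, 13.3% of genes were higher and 18.1% lower, and no member was called in either direction (1 higher and 0 lower unadjusted). The median change of the members was 0.02 in N tax against N and 0.03 in H tax against H. The single call was RPL36A, whose probe set lies near background and entered the test only through N tax, the condition in which it is high, so that its call is a description and no support for a change. It read 3.56 and 3.23 log2 units on the N tax arrays, the only condition in which both arrays passed the presence threshold of 3.14, and 2.50 and 2.50 on the N arrays. Against that threshold it was at least 1.19-fold higher in N tax (adjusted p = 0.0156, limma, and 0.0599 without the presence filter), and the call was also lost without N replicate 1, N replicate 2 or N tax replicate 1, which each left 0 calls. Without H tax replicate 1, H tax against H gave 1 member higher and 1 lower.

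On the deposited scale, the members that passed the test with epirubicin against control cells all rose, a direction that turned round when the arrays were centred on the poly-A controls (given with the scalings). In N epi against N, 24.2% of all genes were called higher and 30.8% lower, and 7 of the 52 members were higher (13.5%) and 0 lower (9 and 0 at an unadjusted p under 0.05). In H epi against H, 29.5% of genes were higher and 36.2% lower, and 10 members were higher (19.2%) and 0 lower (11 and 0 unadjusted). In N epi against N tax, 30.3% of genes were higher and 33.7% lower, and 6 members were higher (11.5%) and 1 lower. The shares called higher were thus below those over all genes in all 3 comparisons, and so were the shares called lower. The median change of the members was 0.09 in N epi against N, 0.12 in H epi against H and 0.08 in N epi against N tax, against medians of -0.01, -0.03 and 0.00 over all genes. Differences of more than 1 log2 unit occurred in none of the members, and in 28.7%, 39% and 37.5% of all genes in these comparisons.

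The comparisons N epi against N and H epi against H share no array. They come from the same fit, however, and share its estimate of each gene's spread, so their calls are not independent. All 7 members called higher in the first (RPL3, RPL11, RPL14, RPL22, RPL31, RPL36 and RPS9) were called higher in the second (70% of its 10 calls), which added RPL6, RPL19 and RPS6. Over all 52 members, 38 had a positive change in both, 9 a negative one in both and 5 opposite signs, and across the 49 members with strong signals the changes of the 2 comparisons correlated with r = 0.856 and rho = 0.854. The overlap, signs and correlation were not computed over all genes, so they cannot be called particular to the members. Members of the large subunit made up 6 of 7 calls in normoxia and 8 of 10 in hypoxia, with medians of 0.11 and 0.16 over 32 genes, against 0.04 and 0.06 over the 20 genes of the small subunit. The difference between the subunits was not tested.

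RPL22, a large-subunit protein that is dispensable for translation in mice and binds several other RNAs, had the largest rise in normoxia. It read 15.31 and 15.09 log2 units on the N epi arrays, against 14.71 and 14.65 on the N arrays, a change of 0.52 ± 0.11 (SE) or 1.43-fold (adjusted p = 0.00502, limma). In hypoxia it read 15.16 and 15.21 in H epi, against 14.88 and 14.79 in H, a change of 0.35 (adjusted p = 0.0218). The 4 epirubicin arrays lay above all 8 others.

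RPL36, which sits on the surface of the large subunit, had the largest rise in hypoxia. It read 14.47 and 14.50 in H epi, against 13.959 and 14.003 in H, a change of 0.50 ± 0.11 (SE) or 1.42-fold (adjusted p = 0.00362). In normoxia the readings were 14.37 and 14.46 in N epi, against 13.98 and 14.05 in N, and the change was 0.40 (adjusted p = 0.0153). The H tax and N tax arrays, at 14.03 to 14.27, overlapped the control arrays and lay below the epirubicin arrays.

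RPL14, a protein of the large subunit, read 14.92 and 14.94 in H epi, against 14.53 and 14.51 in H, a change of 0.41 (adjusted p = 0.006). RPL3, which lies next to the peptidyl transferase centre, read 14.99 and 15.03 in H epi, against 14.64 and 14.62 in H, a change of 0.38 (adjusted p = 0.00754). In normoxia both rose by a similar amount, RPL14 by 0.33 (adjusted p = 0.0224) and RPL3 by 0.34 (adjusted p = 0.0155). For RPL3 the paclitaxel arrays, at 14.73 to 14.86, also lay above the control arrays, and the difference between N epi and N tax did not pass the test.

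RPS9, a protein of the small-subunit body, was the small-subunit member with a call in normoxia. It read 13.977 and 13.999 in N epi, against 13.57 and 13.59 in N, a change of 0.41 (adjusted p = 0.0162). RPS6, the small-subunit protein phosphorylated by S6 kinases, read 15.26 and 15.27 in H epi, against 14.91 and 14.95 in H, a change of 0.34 (adjusted p = 0.0115). RPS9 was also called in hypoxia, with 14.051 and 14.003 in H epi and 13.81 and 13.67 in H (adjusted p = 0.0487), a value near the threshold. RPS6 and RPL19 were chosen for naming here after their values had been seen.

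Of 6 genes listed here for binding MDM2 (RPL5, RPL11, RPL23, RPS7, RPS3 and RPS27A), RPL11, RPS7 and RPS3 have a value. The list was not made to be complete. RPL11 read 14.90 and 14.96 in N epi, against 14.60 and 14.59 in N (change 0.34, adjusted p = 0.0259), and 14.86 and 14.95 in H epi, against 14.61 and 14.60 in H (change 0.31, adjusted p = 0.0303). Against N tax, with 14.45 and 14.65, the change in N epi was 0.38 (adjusted p = 0.0124). RPS7 and RPS3 passed the test in no comparison with their brightest probe sets. A second probe set of RPS7 read 14.715 and 14.780 in H epi, against 14.360 and 14.303 in H. In normoxia it read 14.754 and 14.758 in N epi, against 14.497 and 14.416 in N. With the brightest probe sets of the 3 genes, changes with epirubicin ran from -0.04 to 0.34 in normoxia and from -0.05 to 0.31 in hypoxia.

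Against N tax, the largest rises in N epi were those of RPL22 (0.41, adjusted p = 0.0117), RPL6 (0.39, adjusted p = 0.00736) and RPL11. RPL6, another large-subunit protein, read 14.63 and 14.57 in N epi and 14.20 and 14.21 in N tax. The N arrays lay between them at 14.46 and 14.46, and N epi against N did not pass the test. The 1 member called lower, RPL36A, was under the presence threshold on both N epi arrays, at 2.47 and 2.47, and its fold is a bound of at least 1.19-fold. It was tested only because of its N tax arrays, so this call too is a description.

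These counts rest on few arrays. Leaving out 1 array leaves 1 array in its condition, and shares over all genes are not given beside the falls that follow. The falls thus say nothing particular about the members. Without N epi replicate 2 the members' median change in N epi against N was 0.084, against 0.087 with it. In N epi against N, the 7 rises fell to 1 without N replicate 1, 2 without N replicate 2 and 3 without either N epi replicate, and in H epi against H the 10 fell to 4 without H replicate 1, 5 without H replicate 2 and 4 without H epi replicate 2. In N epi against N tax, the 6 fell to 2 without N tax replicate 1 and 3 without N epi replicate 1. The rise of RPL22 in normoxia and those of RPL36, RPL14 and RPL3 in hypoxia kept an adjusted p under 0.05 without any 1 of the 12 arrays. With the third arrays placed by title the counts were 15, 22 and 12 in these 3 comparisons, and placed by source name they were 0, 0 and 0. The shares over all genes were not computed for either placement, so these counts say nothing particular about the members.

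The direction of the epirubicin changes depended on the scaling of the arrays. With each array centred on the median of its tested probe sets, which removes a shift of up to 0.738 log2 units between arrays, the median change of the members was 0.49 in N epi against N, 0.66 in H epi against H and 0.44 in N epi against N tax, and 43, 51 and 31 members were called higher, against 44.4%, 51.1% and 44.2% of all genes. With each array centred on the poly-A controls, the same medians were -0.63, -0.69 and -0.54, and no member was called higher and none lower except RPL36A in N epi against N tax. Over all genes, that fit called 0.509%, 1.56% and 2.8% higher and 35.6%, 41.9% and 34.5% lower. When the replicate number was added as a block to that fit, an alternative chosen after seeing that the controls differed between replicates 1 and 2, 45, 49 and 45 members were called lower, against 62.7%, 65.1% and 55.7% of all genes, so most genes moved the same way. The same 3 medians were 0.04, 0.10 and 0.07 after quantile normalization, with 4, 8 and 4 members higher, against 30.2%, 37.5% and 35.7% of all genes. Over all genes tested, the median in N epi against N was 0.40 with median centring, 0.10 after quantile normalization and -0.73 with the poly-A controls. In that comparison the members' median thus lay above the median of all genes as deposited and with either centring, and below it after quantile normalization.

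**Figure D3:**
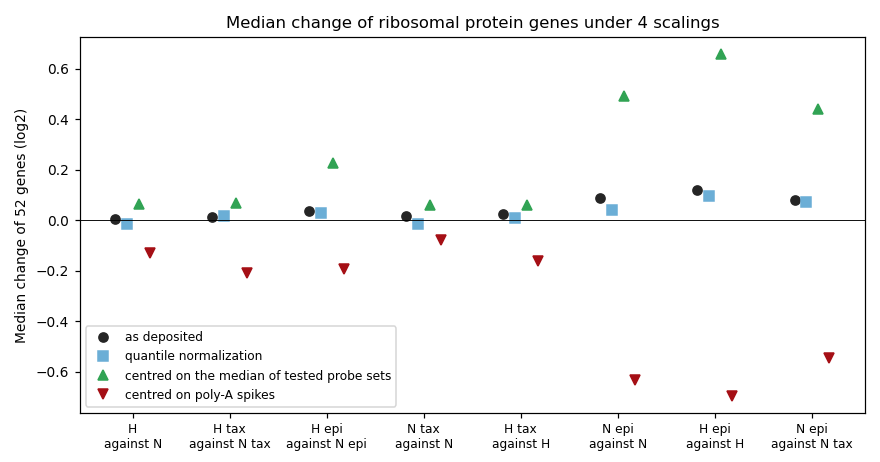
Median change (log2, vertical axis) of the 52 ribosomal protein genes in 8 comparisons under 4 scalings of the arrays: as deposited, after quantile normalization, centred on the median of the tested probe sets and centred on the poly-A controls. The 4 values for N epi against N are 0.09, 0.04, 0.49 and -0.63, whereas in N tax against N they lie between -0.08 and 0.06.

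Other members kept nearly the same signal in all 6 conditions. RPL41 had the narrowest range, with condition means of 16.02 in H epi, 16.01 in N epi, 15.98 in H tax, 16.01 in N tax, 15.99 in H and 15.99 in N. RPS21 and RPS14, small-subunit proteins, spanned 0.05 log2 units each. RPLP1, an acidic protein of the stalk, read 15.36 and 15.34 in H epi, 15.32 and 15.35 in N epi, 15.45 and 15.36 in H and 15.35 and 15.33 in N, and its 6 condition means spanned 0.1 log2 units. RPS4X had its lowest means in H epi (15.93) and N epi (15.96), against 16.01 in H and 15.99 in N, without a call.

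The size of the change with epirubicin went with the signal of the probe set. Across the 49 members with strong signals, the mean level and the change correlated with rho = -0.57 in N epi against N, -0.476 in H epi against H and -0.556 in N epi against N tax, against -0.354 in H tax against N tax and -0.0461 to -0.119 in the other 4 comparisons of 2 conditions. Split at the median level of 15.38, the 25 members at or below it gave all 7 calls in normoxia and 9 of 10 in hypoxia, with median changes of 0.14 and 0.18, and the 24 above it gave 0 and 1 calls, with medians of 0.04 and 0.10. The brightest members, at 16.0, lie close to the highest signals on these arrays (the highest value in the table is 16.58). How far the signal still follows the amount of RNA at these levels was not tested.

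Probe sets of lower signal for the same genes give a second view. Besides the 52 chosen by the rule, the members have 59 probe sets, of which 43, of 25 genes, were tested. Of these, 16 were higher and 2 lower in N epi against N, with a median change of 0.25, in H epi against H 20 were higher and 4 lower (median 0.25), and in N epi against N tax 16 were higher and 3 lower (median 0.20). Over all genes, by their brightest probe sets, 24.2%, 29.5% and 30.3% were higher and 30.8%, 36.2% and 33.7% lower in these comparisons. Shares over all probe sets of like signal were not computed, so these counts are a description only. Bands of signal were formed over all tested probe sets of the members, the brightest ones included. Between 10 and 14 log2 units lay 6 probe sets of 3 genes, RPL22, RPS9 (its brightest one among them) and RPS21. RPL22 and RPS9 were already called by their brightest probe sets. The median of the 6 was 0.51 in N epi against N and 0.67 in H epi against H, and 5 of 6 were higher in each. In the 65 above 14 the median was 0.09 and 0.12. In the 24 probe sets of 17 genes with a mean below 10 the medians were 0.19 and 0.28, with 7 higher and 2 lower in N epi against N and 8 higher and 4 lower in H epi against H.

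RPL22 has 5 probe sets, at several of these levels. Its probe set with a mean of 11.9 read 12.44 and 12.46 in N epi, against 11.52 and 11.60 in N, a change of 0.89 (adjusted p = 0.000583), and that with a mean of 11.2 changed by 0.99 (adjusted p = 0.000662), against 0.52 for the brightest one. For RPS21, whose brightest probe set was among the most even, the probe set with a mean of 11.7 read 12.50 and 12.44 in H epi, against 11.67 and 11.44 in H, a change of 0.92 (adjusted p = 0.000345). RPS23, a small-subunit protein at the decoding site, read 15.93 and 15.99 in H epi and 15.90 and 15.90 in H with its brightest probe set, and 9.76 and 9.90 in H epi against 8.63 and 8.85 in H with another, a change of 1.09 (adjusted p = 9.24e-05). RPS28, at the mRNA exit, changed by 1.36 in H epi against H with its probe set at a mean of 7.5 (adjusted p = 4.87e-05), and its brightest probe set read 15.28 and 15.33 in H epi and 15.30 and 15.35 in H. RPS23 and RPS28 were named after their values had been seen. Whether the dimmer probe sets read the same transcripts as the brightest ones was not tested.

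Probe sets of 1 gene could also disagree. In RPL35A, a large-subunit protein mutated in Diamond-Blackfan anaemia, the probe set with a mean of 8.7 read 9.84 and 10.06 in H epi, against 8.20 and 8.27 in H, a change of 1.72, while that with a mean of 5.5 read 5.20 and 5.20 in H epi, against 5.97 and 5.80 in H, a change of -0.69, both past the test. In RPL31, a large-subunit protein near the tunnel exit, the probe sets at 8.4 and 8.7 changed by 0.66 and -0.51 in H epi against H. The second of these was raised in H, at 9.40 and 9.29, against 8.32 and 8.39 in N (change 0.99, adjusted p = 0.00733), which the brightest probe set, at 15.071 and 15.004 in H and 15.043 and 15.004 in N, did not show. In RPS24 a probe set with a mean of 5.4 read 2.70 and 3.71 in N epi, against 6.61 and 6.67 in N, the largest fall among member probe sets (-3.43, adjusted p = 7.41e-05), while the brightest one read 15.39 and 15.38 in N epi and 15.30 and 15.30 in N. RPS24 was named after its values had been seen.

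**Figure D4:**
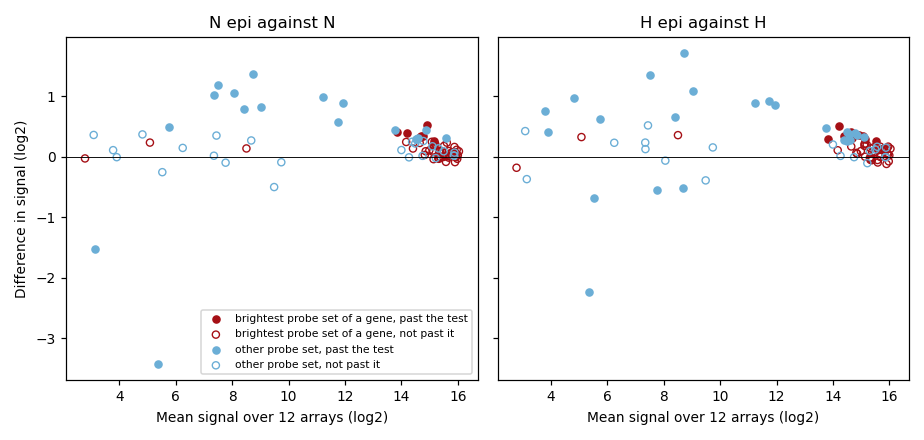
Change with epirubicin (log2, vertical axis) against the mean signal over 12 arrays (log2, horizontal axis) for every tested probe set of the 52 genes, N epi against N on the left and H epi against H on the right. Red points are the brightest probe set of a gene and blue points its other probe sets, filled where the change passed the test. Changes of the probe sets near 16 lie close to 0, and the filled blue points between 7 and 12 reach 1.37 on the left and 1.72 on the right.

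The other 3 members had far lower signals. RPL27A, a large-subunit protein, had a mean of 8.51, RPLP2, the partner of RPLP1 in the stalk, 5.08, and RPL36A 2.78, which is below the presence threshold. RPL27A read 8.69 and 8.89 in H epi, against 8.41 and 8.46 in H, and RPLP2 read 5.42 and 5.59 in H epi, against 5.18 and 5.18 in H. Neither passed the test. A total of 64 probe sets carry a ribosomal protein symbol among several, and 59 of them were tested. Of the 59, 14 were higher and 0 lower in N epi against N (median 0.13), in H epi against H 16 were higher and 1 lower (median 0.16), and in H against N none was called (median 0.01). Over all genes, 24.2% were higher and 30.8% lower in N epi against N, and 29.5% and 36.2% in H epi against H.

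Groups of genes related to the ribosome were counted in the same way. Over all genes, 4.26% were higher and 5.75% lower in H against N, and 8.92% and 15% in N tax against N. In N epi against N the shares were 24.2% and 30.8%, in H tax against H 13.3% and 18.1%, and in H epi against H 29.5% and 36.2%. They are the background for the groups in the paragraphs below as well. Among nucleolar and assembly factors of ribosome biogenesis, 19 of 37 were called lower and 0 higher in H against N with a median change of -0.77, and this median stayed between -0.71 and -0.90 under the other 3 scalings. With the drugs, none of the 37 was called in H tax against N tax (median -0.33) and 1 was lower in H epi against N epi (median -0.17). NOP2, a methyltransferase of 28S rRNA, read 7.23 and 7.67 in H, against 9.18 and 9.24 in N, a change of -1.75 (adjusted p = 0.00462), RRS1, an assembly factor of the large subunit, changed by -2.34 (adjusted p = 0.0133) and NOP16, a nucleolar protein, by -1.55 (adjusted p = 0.0196). In H tax against H, 17 of the 37 were higher and 0 lower. With epirubicin the calls went both ways, with 12 higher and 17 lower in N epi against N, and 0 higher and 16 lower with the poly-A controls. The median of 0.06 in that comparison was -0.04 without N epi replicate 2.

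Several paralogs of the members passed the test. RPL22L1, the paralog of RPL22, read 12.68 and 13.06 in N epi, against 11.51 and 11.64 in N, a change of 1.30 (adjusted p = 0.000785), and 10.37 and 10.54 in H, against the same N values, a change of -1.12 (adjusted p = 0.00939). RPL26L1, the paralog of RPL26, was lower in H than in N by -0.78 on the log2 scale (adjusted p = 0.0105) and higher in H epi than in H by 1.64 (adjusted p = 2.89e-05). In all, 4 of 7 paralogs were higher and 0 lower in N epi against N, 5 higher and 2 lower in H epi against H, and 0 higher and 2 lower in H against N. Their median in N epi against N was 0.76 as deposited and 0.04 with the poly-A controls. FAU, which encodes RPS30 fused to a ubiquitin-like protein, was the 1 gene of its list with a value, and it read 15.20 and 15.14 in N epi, against 14.83 and 14.81 in N (change 0.35, adjusted p = 0.0153).

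Other messenger RNAs with a TOP motif, most of which encode translation factors, were counted beside the members. Of 17 tested, 3 were higher and 1 lower in N epi against N, with a median of 0.09, and in H against N none was called. EIF3K, a subunit of eIF3, changed by 0.65 (adjusted p = 0.00377), NAP1L1, a histone chaperone, by 0.40 (adjusted p = 0.00696) and EIF4B, a cofactor of the helicase eIF4A, by -0.41 (adjusted p = 0.0208). In N tax against N, HNRNPA1, a splicing factor, changed by 1.44 (adjusted p = 0.0229) and EEF2, the translocase, by 0.37 (adjusted p = 0.0425). The median of the 17 in N epi against N was -0.04 after quantile normalization and -0.63 with the poly-A controls.

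Genes for regulators of TOP messenger RNAs were called in both directions. LARP1, the repressor that binds the TOP motif, read 11.50 and 11.70 in H, against 12.07 and 12.25 in N, a change of -0.56 (adjusted p = 0.0338), the 1 call among 17 in that comparison. In N epi against N, 4 were higher and 4 lower. RPS6KB2, a kinase of RPS6, read 9.03 and 8.91 in N epi, against 7.16 and 7.11 in N, a change of 1.84 (adjusted p = 0.000401), and LARP4B, an RNA-binding protein, read 7.80 and 8.65 in N epi, against 10.28 and 10.28 in N, a change of -2.05 (adjusted p = 0.000412). EIF4EBP1, an inhibitor of cap-dependent translation, was higher in N tax than in N by 0.97 (adjusted p = 0.00721) and in N epi than in N by 1.13 (adjusted p = 0.00139). DDIT4, an inhibitor of mTORC1, read 3.86 and 10.28 in N epi, 12.19 and 12.40 in N, 3.80 and 3.30 in H epi and 14.10 and 13.84 in H. The 2 N epi arrays thus disagreed widely, as they did in the short-lived transcripts.

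Transcripts known for short half-lives were also counted. Of 27 tested, 2 were higher and 14 lower in N epi against N, with a median change of -2.82, and 1 was higher and 21 lower in H epi against H, with a median of -4.53, against medians of 0.09 and 0.12 for the members. N epi replicate 2 was above replicate 1 in 26 of the 27, by 2.58 log2 units in the median, and without it 22 were lower and 2 higher in N epi against N, with a median of -4.32. With the poly-A controls the 2 medians were -3.54 and -5.34, and with median centring -2.41 and -3.99. CCN1, a secreted matrix protein, changed by -4.89 (adjusted p = 0.000383) and BHLHE40, a transcriptional repressor, by -4.92 (adjusted p = 0.00165) in N epi against N. In H against N only 1 of the 27 was called, CCND1, cyclin D1, at -0.61 (adjusted p = 0.0132).

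Among other housekeeping groups, 35 of 75 mitochondrial ribosomal protein genes were higher and 14 lower in N epi against N (median 0.32), and 15 were lower and 0 higher in H against N (median -0.30). Of 69 nuclear genes taken by symbol for the respiratory chain and ATP synthase, 48 were higher and 0 lower in N epi against N (median 0.41). The symbols also took in ATP5MC2P1, a pseudogene with signals near the presence threshold. Of 33 proteasome genes, 6 were higher and 3 lower (median 0.14, and -0.01 after quantile normalization). With the poly-A controls these 3 medians in N epi against N were -0.41, -0.31 and -0.58. Among the 500 other genes with the strongest signals, 143 (28.6%) were higher and 47 (9.4%) lower in N epi against N, with a median of 0.18, and 52 were higher and 83 lower in N tax against N.

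**Figure D5:**
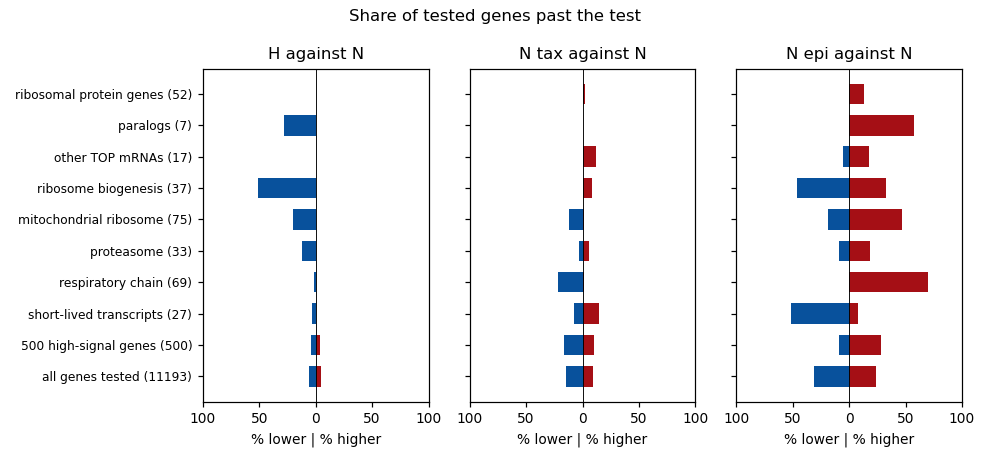
Share of tested genes past the test (horizontal axis, percent, lower to the left in blue and higher to the right in red) for the ribosomal protein genes and 9 other groups, with the number of genes tested in parentheses, in H against N, N tax against N and N epi against N. The ribosomal protein genes have no bar in the first panel, a bar for 1 gene in the second and a bar of 13.5% to the right in the third.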

How the data were processed

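The deposited values, log2 signals that the authors computed with GC-RMA from Affymetrix HG-U133 Plus 2.0 arrays, were used unchanged. The methods name AffyProbeMiner probe set definitions, but the rows carry standard Affymetrix names and were read as such. Gene symbols came from the platform annotation. Depth has no counterpart here, and the number of arrays limits precision. Of 54613 probe sets without controls, 24151 were above 8.84 (linear scale) on both arrays of at least 1 condition. They were fitted together over 6 conditions with limma 3.58.1 in R 4.3.3, with Benjamini-Hochberg adjustment over all of them at 0.05. Each of 11193 genes was counted by its brightest probe set. The fit was tested on simulated data. A bound sets the brighter condition against the presence threshold. Named members were the largest called changes per comparison, the widest and narrowest ranges, the highest and lowest levels, members with opposing probe sets, and RPL11, RPLP1 and RPLP2. The members and gene lists were chosen with earlier results of these data known. Alternatives were the third arrays, other filters, scalings, variance models and probe sets, a replicate block and leaving out each array. Promoters came from RefSeq.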

Additional observations from a re-analysis of the deposited data

Results flagged for a closer look

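No ribosomal protein gene was singled out. In related groups, the effect of hypoxia with epirubicin differed from that in control cells by the test of the difference between both effects (limma, adjusted over all probe sets tested). Among the paralogs this held for 2 genes. Over all genes tested, 1.56% were called higher and 2.52% lower. The H epi arrays of RPL22L1 read 12.995 and 12.935, the N epi arrays 12.68 and 13.06, the H arrays 10.37 and 10.54 and the N arrays 11.51 and 11.64, a difference of 1.213 log2 units (adjusted p = 0.0442). For RPL26L1 the H epi arrays read 12.69 and 12.69, the N epi arrays 12.76 and 12.43, the H arrays 10.94 and 11.16 and the N arrays 11.88 and 11.79, a difference of 0.874 (adjusted p = 0.0442). Among ribosome biogenesis genes it held for 6, with differences of 1.430 for NIP7 (adjusted p = 0.0276), 1.300 for DDX21 (adjusted p = 0.00832) and 1.298 for MRTO4 (adjusted p = 0.0411). It also held for 1 short-lived transcript, CCND1, at 0.699 (adjusted p = 0.0498), and for 1 mitochondrial ribosomal protein gene, MRPL30, at 1.106 (adjusted p = 0.0239). Single arrays were not tested as outliers, with 2 a condition.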

How the results depend on the processing

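With 2 arrays a condition, small changes could not be detected. Counts below are members higher unless stated. Shares over all genes are given above for the scalings. They were not computed for the third arrays, the filters, the variance model, the fits on the compared arrays only or the replicate block on deposited values. They are not given for leaving out an array either. These counts thus say nothing particular about the members. Leaving out 1 array gave 0 to 1 in N tax against N, 1 to 8 in N epi against N, 0 to 1 higher and 0 to 1 lower in H tax against H, 4 to 10 in H epi against H and 2 to 6 in N epi against N tax. With the third arrays placed by title, the counts were 3 higher and 1 lower in N tax against N, 15 in N epi against N, 3 in H tax against H, 22 in H epi against H and 12 in N epi against N tax. Placed by source name, all of these were 0, with 0 lower in N epi against N tax, and the median change was -0.018 in H epi against N epi, -0.003 in H epi against H and -0.049 for the difference of hypoxia effects with epirubicin. A stricter presence threshold, and likewise members above 13 only, gave 0 in N tax against N and 0 lower in N epi against N tax. Without the filter there were 3 lower in N tax against N, 16 in N epi against N, 1 lower in H tax against H, 20 higher and 1 lower in H epi against H and 14 in N epi against N tax. Trended and robust variance gave 3 higher and 4 lower in N tax against N, 16 in N epi against N, 1 and 1 in H tax against H, 26 and 2 in H epi against H and 18 and 2 in N epi against N tax. Fits on the compared arrays only gave 5 in H epi against H and 2 in N epi against N tax. Without cross-hybridizing (_x_at) probe sets there were 4 in N epi against N and 6 in H epi against H.

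All tested probe sets of each gene gave 2 higher in H against N, 1 in H tax against N tax, 3 higher and 1 lower in N tax against N, 15 and 2 in N epi against N, 2 and 2 in H tax against H, 17 and 2 in H epi against H and 15 and 4 in N epi against N tax. The members' other probe sets alone gave 2, 1, 2 and 1, 16 and 2, 2 and 2, 20 and 4 and 16 and 3 in the same order. Quantile normalization gave 4 in N epi against N and a median of -0.015 in N tax against N, and median centring gave 43 in N epi against N, 51 in H epi against H and 31 in N epi against N tax.

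Centring on the poly-A controls, without or with the replicate block, gave 0 higher in paclitaxel-treated against control cells in normoxia and in the 3 epirubicin comparisons (N epi against N, H epi against H and N epi against N tax), where 45, 49 and 45 were lower with the block. The medians were -0.191 in H epi against N epi, -0.078 in N tax against N, -0.634 in N epi against N, -0.161 in H tax against H, -0.694 in H epi against H, -0.544 in N epi against N tax and -0.064 for the difference of hypoxia effects with epirubicin. The changes in N epi against N became -0.387 for RPL11, -0.395 for RPL14, -0.202 for RPL22, -0.377 for RPL3, -0.456 for RPL31, -0.325 for RPL36 and -0.317 for RPS9. In H epi against H they became -0.508 for RPL11, -0.404 for RPL14, -0.462 for RPL22, -0.436 for RPL3, -0.527 for RPL31, -0.312 for RPL36, -0.474 for RPL6 and -0.522 for RPS9, and in N epi against N tax -0.243 for RPL11, -0.29 for RPL14, -0.214 for RPL22 and -0.231 for RPL6. The block and the alternatives by probe set were chosen after seeing the data. On the deposited values, the replicate block gave 6, 9 and 6 higher in the 3 epirubicin comparisons, and RPL31 in N epi against N (adjusted p = 0.0561, limma) and RPS9 in H epi against H (adjusted p = 0.0617) lost their calls. The numbers were not taken to pair the arrays, since deviations of same-numbered arrays correlated over 0.1 in only 3 of 15 pairs of conditions, from -0.184 to 0.302, although the poly-A controls were higher on replicate 1 in all 6 conditions. The cause of these differences was not tested.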

Other observations

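The 6 arrays without a condition gave these values. The ACTB difference between the 3′ and the 5′ end was -0.21 log2 units on the array titled N epi (source name N tax) and -0.18 on that titled H epi (source name H tax). It was 0.24 on the array titled N tax (source name N), 0.43 on that titled H tax (source name H), 0.04 on that titled N (source name N epi) and 0.31 on that titled H (source name H epi). The share of probe sets present, in the same order, was 41.4%, 41.5%, 42.5%, 42.2%, 42.2% and 42.1%, and the 75th percentile of the array was 6.32, 6.27, 6.92, 6.82, 6.94 and 6.82 log2 units. The first 2 of these arrays thus had the lowest values of all 3 measures. On the arrays with a condition, the 4 epirubicin arrays had 41.4% to 41.7% present and the other 8 had 42.2% to 42.6%. No array was assigned to a condition from these values.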
